A study of Mus musculus with 20 samples.

Results

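Voltage-gated sodium channels, voltage-gated calcium channels and HCN channels were followed through the cortex and hippocampus of mice at postnatal day 7. The genes were taken by a pattern on the gene symbol, and this choice was made with earlier results of these data known. The pattern takes the sodium channel α and β subunits, the calcium channel α1, α2δ and β subunits and the HCN channels. The pattern found 36 of the 47729 genes in the files, of which 10 encode sodium channel α subunits, 4 sodium channel β subunits, 10 calcium channel α1 subunits, 4 α2δ subunits, 4 calcium channel β subunits and 4 HCN channels. Both tissues of 5 WT mice (mice 1 to 5) and 5 Ube3aOE mice (mice 6 to 10) were sequenced, 20 libraries from 10 mice, all labelled as strain C57Bl/6J and including both sexes. Ube3aOE mice carry extra copies of Ube3a, a ubiquitin ligase gene, on a floxed bacterial artificial chromosome transgene that brings its own flanking sequence, and the study calls the mice of this experiment Ube3a+2. The labels do not name the transgenic line. Between hippocampus and cortex, 21 of the 33 channel genes that could be tested (63.6%, against 50.9% of all genes tested) differed at an adjusted P value under 0.05 in edgeR's quasi-likelihood test over 20 libraries. Scn7a and Scn11a among them passed the filter on low counts in 1 tissue alone. Without them 19 of 31 passed (61.3%, against 50.6% of the genes that passed the filter in each tissue). Between Ube3aOE and WT mice 0 of 32 passed in either tissue, each with 10 libraries (0.00669% of all genes in cortex and 0.00657% in hippocampus).

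A voltage-gated sodium channel is built around a single large α subunit that forms the pore and opens when the membrane depolarizes, which starts the action potential. The smaller β subunits tune its gating and help place it in the membrane. In calcium channels the α1 subunit forms the pore and sets the current type (P/Q, N, L, R or T), the β subunit sits inside the cell and brings the pore to the surface, and the α2δ subunit sits outside and sets how many channels reach the synapse. HCN channels open on hyperpolarization and carry a mixed cation current that steadies the resting potential and helps rhythmic firing. In the forebrain the first weeks after birth are a period in which sodium channel genes change over, with Scn3a known as the perinatal form and Scn1a and Scn8a as forms that gain with maturation.

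The sequences just before the transcription start are shown for calcium channel subunit genes with large region differences. These are Cacna2d3, which was higher in hippocampus, and Cacna2d1 and Cacna1i, which were lower. Cacnb2 and Cacna1s differed by more than Cacna2d1 and are not shown. The sequences are RefSeq promoter sequences of build GRCm38.p6, 250 bases long, written 5′ to 3′ on the strand of the gene and ending at the base before the start. Capitals mark GC boxes, searched as GGGCGG and on the other strand CCGCCC, with overlapping copies counted. Cacna2d3 lies on the minus strand (chr14:29721865-29722114), Cacna2d1 on the plus strand (chr5:15934441-15934690) and Cacna1i on the plus strand (chr15:80286988-80287237).
Cacna2d3 promoter: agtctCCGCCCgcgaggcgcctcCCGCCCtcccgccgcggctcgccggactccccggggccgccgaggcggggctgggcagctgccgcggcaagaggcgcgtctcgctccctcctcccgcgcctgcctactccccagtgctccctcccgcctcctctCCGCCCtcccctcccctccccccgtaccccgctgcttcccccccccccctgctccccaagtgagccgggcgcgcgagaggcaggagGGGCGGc
Cacna2d1 promoter: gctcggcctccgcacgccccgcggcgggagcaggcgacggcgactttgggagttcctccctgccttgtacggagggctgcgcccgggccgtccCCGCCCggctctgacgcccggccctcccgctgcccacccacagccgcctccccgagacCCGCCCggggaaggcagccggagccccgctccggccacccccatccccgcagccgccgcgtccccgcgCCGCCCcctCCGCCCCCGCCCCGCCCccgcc
Cacna1i promoter: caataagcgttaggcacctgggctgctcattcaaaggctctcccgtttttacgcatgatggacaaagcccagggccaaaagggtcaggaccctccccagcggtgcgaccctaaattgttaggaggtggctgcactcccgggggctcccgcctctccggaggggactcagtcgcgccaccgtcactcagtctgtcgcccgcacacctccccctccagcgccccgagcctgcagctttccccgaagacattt
The window before Cacna2d3 held 4 GC boxes and 30 CpG dinucleotides, that before Cacna2d1 held 6 and 36, and that before Cacna1i held 0 and 16. A promoter entry was present for 26 of the 36 genes, with 36 entries in all. A GC box was found in 41.7% of these entries and in 32.7% of all 32851 promoter windows of the same length. The E-box CAGCTG, which reads the same on both strands, was found in 25.0% against 13.0%, and the core promoter motif TATAAA, or on the other strand TTTATA, in 5.56% against 12.4%. More than 20 CpG dinucleotides were present in 38.9% of the channel gene windows and in 16.3% of all windows. These matches describe the letters of the windows only.

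The libraries held 14191093 to 16752326 reads counted on genes, a share of 69.7% to 81.2% of the reads tallied in each file. Levels are given as CPM, the count scaled to the TMM-adjusted library size, and genes are compared with each other only after division by the length of their merged exons (CPM per kb). Ube3a was 60.8 ± 5.90 CPM in WT and 151 ± 27.4 CPM in Ube3aOE cortex (SD, n = 5), and 64.8 ± 8.21 against 162 ± 24.8 CPM in hippocampus, a 2.49-fold and a 2.50-fold difference (exact permutation test, two-sided, P = 0.00794 in each tissue, the smallest value that 5 against 5 mice allow). The genes that mark sex went against the labelled sex in both libraries of mice 3 and 5. Beyond their own tissue, 7 libraries held markers of another one. In hippocampus the 4 thalamus markers summed to 463, 554 and 1153 CPM in mice 4, 7 and 10 and to 93.5 to 185 CPM in the other mice. Tcf7l2, a transcription factor of thalamic neurons, was 226, 270 and 561 CPM in these 3 mice. It was 46.5 CPM in mouse 8 and 2.84 to 6.15 CPM in the others. The hippocampus library of mouse 8, with the sum of 185 CPM, thus held some thalamus marker signal but was not counted among the 7. The 6 striatum markers summed to 438.5 CPM in mouse 9 and to 45.4 to 69.8 CPM in the other mice, and the 5 neocortex markers to 283 CPM in mouse 2 and to 116 to 164 CPM in the others. In cortex the 5 hippocampus markers summed to 178 and 165 CPM in mice 8 and 9 and to 70.6 to 92.7 CPM in the others. Choroid plexus markers, 6 in all, summed to 1944 and 343 CPM in the hippocampus of mice 7 and 9 and to 8.34 to 32.2 CPM in the other mice, so both libraries held markers of more than 1 other tissue. Gbx2, another thalamus marker, was at 0 in 7 of the 10 cortex libraries. Both values are given below where leaving these libraries out ended a call or moved a called value by over 1.5 times, and for the largest differences. The plots of differences show both for each gene drawn. This alternative was chosen after the marker levels were seen. It kept the hippocampus libraries of WT mice 1, 3 and 5 and Ube3aOE mice 6 and 8. Genotype differences in hippocampus without the 7 libraries thus rest on few mice.

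Scn2a1, which encodes the sodium channel of immature axons, was the leading α subunit gene in every group. Its mean was 25.2 ± 3.08 CPM per kb in cortex and 19.3 ± 2.96 CPM per kb in hippocampus (SD, n = 10 mice). It made up 55.5% ± 0.848 of the summed α subunit level per length in WT cortex and 50.4% ± 2.59 in WT hippocampus (SD, n = 5). Scn8a followed with 20.6% ± 1.11 in WT cortex and 26.6% ± 2.45 in WT hippocampus, then Scn3a with 15.1% ± 1.20 and 14.6% ± 1.08, and Scn1a with 6.84% ± 0.383 and 5.93% ± 0.377. Scn3a stood above Scn1a in all libraries, with a ratio per length of 2.21 ± 0.209 in WT cortex, 2.42 ± 0.232 in Ube3aOE cortex, 2.48 ± 0.255 in WT hippocampus and 2.50 ± 0.208 in Ube3aOE hippocampus, and the lowest ratio of any library was 1.88. The genes of peripheral sensory neurons (Scn9a, Scn10a, Scn11a), of skeletal muscle (Scn4a) and of sodium sensing (Scn7a) were each below 0.6 CPM per kb on average in both tissues.

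The accessory subunits were in part more abundant per length than the pores. Among the sodium channel β subunit genes, Scn3b (56.4 ± 5.19 CPM per kb in cortex and 67.2 ± 2.51 in hippocampus) stood above every α subunit gene, whereas Scn4b, a subunit known from striatal and fast-firing neurons, was at 0.510 ± 0.332 and 0.828 ± 1.17 CPM per kb (SD, n = 10 mice). Cacnb3 was the leading calcium channel β subunit gene, at 65.0% ± 2.17 of the family in WT cortex and 58.5% ± 0.984 in WT hippocampus, and Cacnb1 followed at 27.5% ± 0.889 and 32.4% ± 0.952 (SD, n = 5). Among the pores, Cacna1b of the N-type channel led with 22.4% ± 0.799 of the α1 level in WT cortex and 25.0% ± 1.62 in WT hippocampus. Hcn2 held 46.2% ± 1.37 of the HCN level in WT cortex and 51.9% ± 2.26 in WT hippocampus, and Hcn3 held 39.8% ± 1.31 and 35.4% ± 0.961. The order of Hcn2 and Hcn3 in cortex depends on the length used, since Hcn3 came first with coding lengths (40.8% against 32.9% in WT cortex) and without any length (36.6% against 32.7%).

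**Figure D1:**
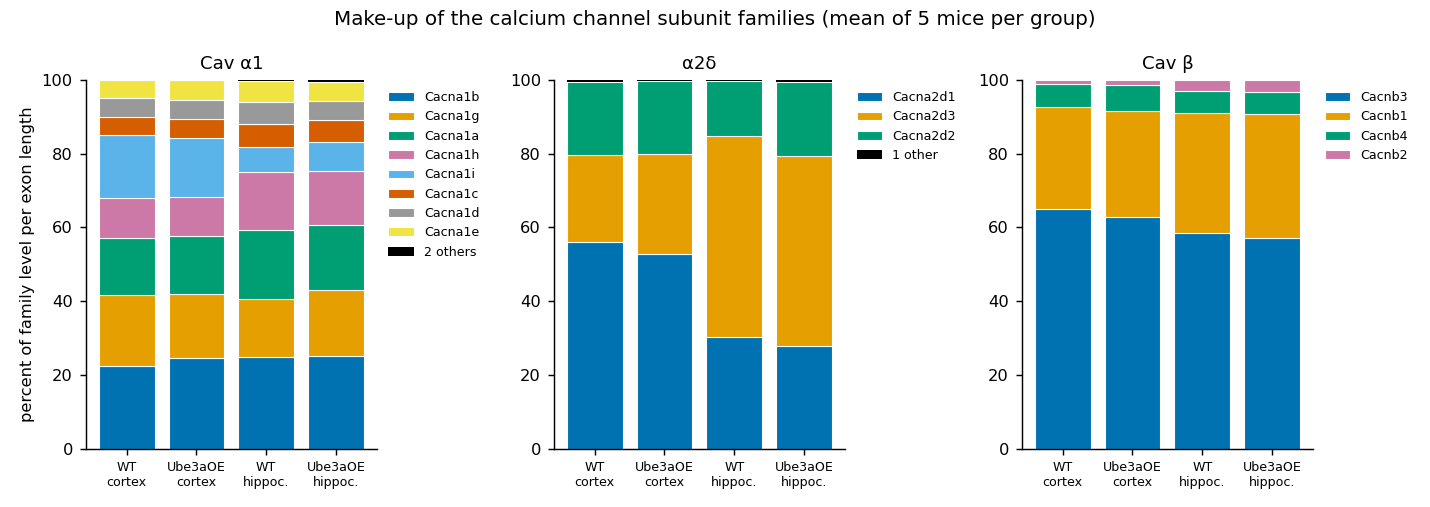
Stacked bars give each gene's percent of the summed level per exon length of its subunit family in the 4 groups for the calcium channel α1, α2δ and β subunits, as the mean of 5 mice, with genes under 1% in all groups drawn together in black. The α2δ bars change hands between the tissues, from Cacna2d1 at 56.0% in WT cortex to Cacna2d3 at 54.4% in WT hippocampus, and within a tissue the shares in the 2 genotypes differ by at most 5.32 percentage points.

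Cacna2d1 was the leading α2δ gene in cortex and Cacna2d3 in hippocampus, in both genotypes and with every length used. In WT mice Cacna2d1 held 56.0% ± 2.39 of the family in cortex and 30.3% ± 4.38 in hippocampus, Cacna2d3 held 23.6% ± 2.30 and 54.4% ± 5.16, and Cacna2d2 stood at 19.9% ± 0.563 and 14.9% ± 3.76 (SD, n = 5). The largest gap between genotypes was 3.42 percentage points for Cacna2d3 in cortex and 5.32 for Cacna2d2 in hippocampus. The Cacna2d3 share in cortex had an SD of 8.02 in Ube3aOE and 2.30 in WT mice. The Cacna2d2 share in hippocampus had one of 7.09 in Ube3aOE and 3.76 in WT mice. Both gaps were smaller than the Ube3aOE SD and larger than the WT SD. These shares are descriptions without a test.

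Hippocampus was compared with cortex in all 20 libraries, as the mean of the differences in WT and Ube3aOE mice. The fit held no term for the mouse. Of the 33 channel genes tested, 9 were higher and 12 were lower in hippocampus. Of all 15661 genes tested, 25.3% were higher and 25.6% lower. The median log2 fold change was -0.076 over the channel genes and -0.0053 over all genes. Scn4a, Scn10a and Cacna1f were too low to be tested (at most 17 counts in any library). Scn7a passed the filter on low counts through its hippocampus values alone and Scn11a through its cortex values alone, so a difference was built into their choice. Without these 2 genes, 19 of 31 passed (8 higher, 11 lower), or 61.3%, against 50.6% of the 14689 genes that passed the filter in each tissue. The 6 neuron markers also differed, with a sum of 8064 to 9390 CPM in cortex and of 6443 to 8206 CPM in hippocampus and 5 of 6 lower in hippocampus (median log2 fold change -0.44). Astrocyte markers were higher there in 4 of 5 (sum 979 to 1689 CPM in cortex, 1706 to 2328 in hippocampus), microglia markers in 4 of 5 (65.9 to 111.4 and 83.5 to 138 CPM), choroid plexus markers in 5 of 5 tested (1.41 to 9.69 and 8.34 to 1944 CPM), Cajal-Retzius markers in 2 of 3 and oligodendrocyte lineage markers in 4 of 7 tested. Of the 7 interneuron markers 3 were higher and 1 lower (498 to 692 and 452 to 1102 CPM), and 0 of 7 vessel and 0 of 5 blood markers passed. The part of these cell types in the channel gene differences was not tested, and in bulk tissue fewer cells of a type and less RNA per cell cannot be told apart.

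**Figure D2:**
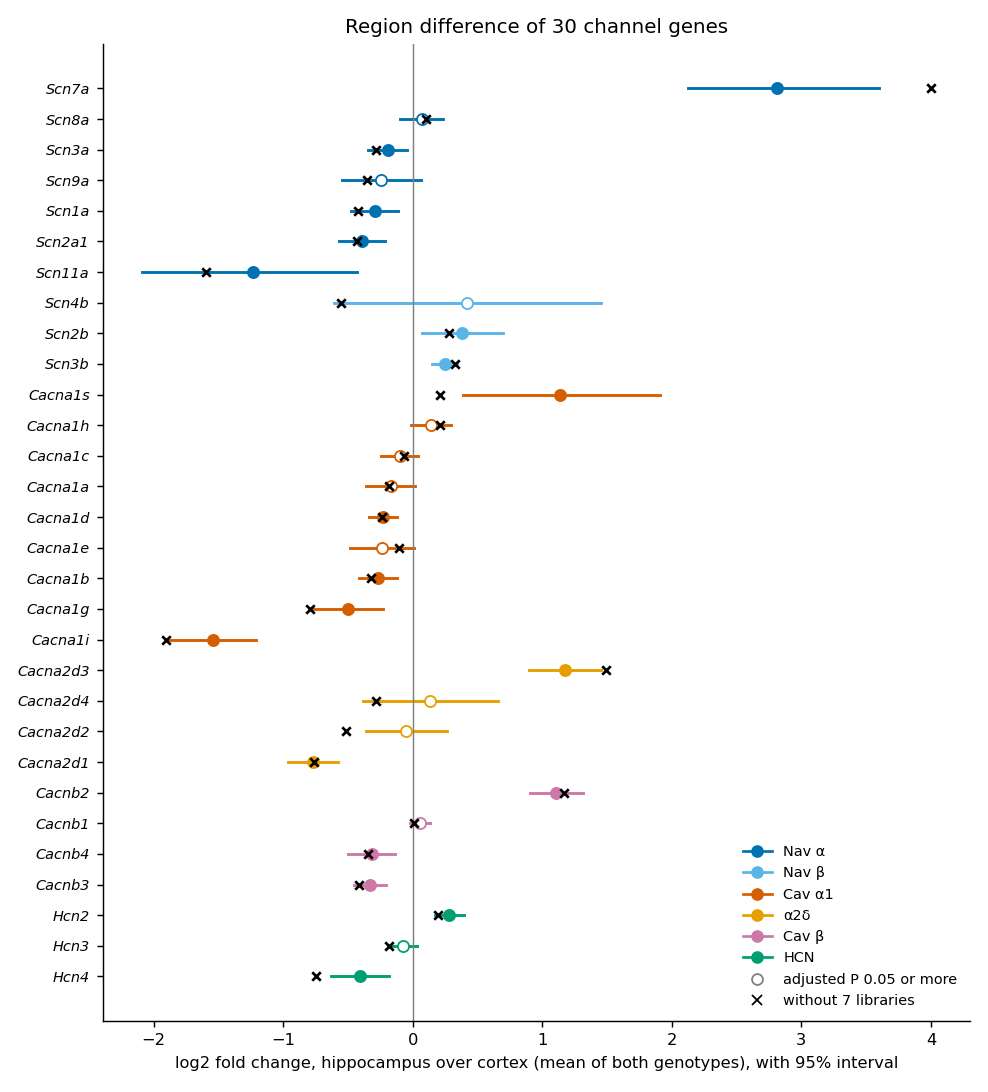
Points give the log2 fold change of hippocampus over cortex with its 95% interval for 30 channel genes, colored by subunit family. Filled points passed at an adjusted P value under 0.05 in edgeR and black crosses give the value without the 7 libraries with markers of another tissue. Cacna1i at -1.55 and Cacna2d3 at 1.18 lie far from 0 with and without these libraries, whereas the cross of Cacna1s lies at 0.21.

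Among the sodium channel α subunits, 4 fell in hippocampus (Scn2a1, Scn1a, Scn3a and Scn11a) and 1 rose (Scn7a). Scn2a1, at a median of 329 CPM in cortex (range 249 to 384) and 247 CPM in hippocampus (range 197 to 319), was lower in 9 of 10 mice with a log2 fold change of -0.39 (SE 0.0853, adjusted P = 0.000724). The 2 tissues overlapped in range. Scn1a, the channel of fast-spiking interneuron axons and of Dravet syndrome, was 40.3, 28.3, 30.3, 34.6 and 33.9 CPM in the cortex of WT mice 1 to 5 and 32.0, 26.7, 30.7, 29.9 and 35.6 CPM in that of Ube3aOE mice 6 to 10. Hippocampus values were 27.7, 29.3, 19.5, 24.5 and 23.1 CPM in WT and 26.2, 23.5, 24.4, 31.0 and 34.9 CPM in Ube3aOE mice. Scn1a was lower in hippocampus in 8 of 10 mice, with a log2 fold change of -0.30 (SE 0.0863, adjusted P = 0.00705). It stood at -0.42 in WT libraries alone (adjusted P = 0.00975) and did not pass in Ube3aOE libraries alone (-0.14, adjusted P = 0.398).

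Scn3a, the perinatal form, was 84.7, 75.9, 72.7, 90.7 and 86.9 CPM in WT cortex and 78.3, 72.1, 91.1, 88.6 and 87.1 CPM in Ube3aOE cortex. The hippocampus gave 70.0, 82.9, 63.1, 64.5 and 60.4 CPM in WT and 65.3, 70.0, 72.1, 91.2 and 90.2 CPM in Ube3aOE mice. The 2 highest hippocampus values came from mice 9 and 10, both above most cortex libraries. Its difference was small, at -0.19 (SE 0.0722, adjusted P = 0.0310), and lower in 7 of 10 mice. The call of Scn3a was lost in Ube3aOE libraries alone (-0.096, adjusted P = 0.531) but not in WT libraries alone (-0.26). It was also lost when mouse 1, 4, 5, 6 or 8 was left out (-0.18, -0.16, -0.16, -0.17 and -0.16). The length and GC correction (-0.14, adjusted P = 0.0547) and library totals alone (-0.14, adjusted P = 0.116) ended it too. Over all 23 alternatives its adjusted P value ran from 0.00217 to 0.531 in edgeR, DESeq2 and limma.

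Scn8a, the main sodium channel of the mature axon initial segment, did not pass: 151 ± 24.9 CPM in cortex and 159 ± 14.3 CPM in hippocampus (SD, n = 10) gave 0.067 with a 95% interval from -0.098 to 0.23. Other α subunit genes sat at low levels. Scn7a, which encodes a sodium-sensing channel of glia and neurons, was 0.128, 0.147, 0.0645, 0.256 and 0.124 CPM in WT cortex and 0, 0, 0.656, 0.305 and 0.127 CPM in Ube3aOE cortex, which is 0 to 11 counts. The hippocampus libraries held 1.52, 0.802, 1.42, 1.44 and 1.05 CPM in WT and 1.26, 1.15, 1.67, 1.28 and 1.49 CPM in Ube3aOE mice (13 to 28 counts). The tissues did not overlap, and the 2 highest cortex values were those of mice 8 and 9, the libraries with hippocampus markers. The log2 fold change of Scn7a was 2.81 (SE 0.356, adjusted P = 1.10e-06), and without the 7 libraries 4.00. As Scn7a passed the filter on low counts through its hippocampus values alone, a difference was built into its choice.

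Scn11a, a sensory neuron channel, went the other way. Its cortex values were 0.894, 0.587, 0.516, 0.704 and 0.497 CPM in WT and 0.253, 0.709, 0.716, 0.487 and 0.950 CPM in Ube3aOE mice. Its hippocampus values were 0.234, 0.432, 0.0618, 0.0575 and 0.174 CPM in WT and 0.120, 0.121, 0.417, 1.09 and 0.119 CPM in Ube3aOE mice, where mouse 9 stood highest of all 20 libraries. Scn11a was lower in 9 of 10 mice, at -1.24 (SE 0.399, adjusted P = 0.0117), on 1 to 17 counts a library. It passed the filter on low counts through its cortex values alone, so a difference was built into its choice. Scn9a did not pass, with 5.01 ± 1.21 CPM in cortex and 4.26 ± 1.02 CPM in hippocampus (SD, n = 10) and a log2 fold change of -0.24. Without mouse 1 it stood at -0.35 and passed in edgeR (adjusted P = 0.0434, range 0.0434 to 0.978 over 23 alternatives).

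Scn3b and Scn2b, which encode sodium channel β subunits, were higher in hippocampus. Scn3b, at 308 ± 28.3 CPM in cortex and 367 ± 13.7 CPM in hippocampus (SD, n = 10), rose in 10 of 10 mice, by 0.24 (SE 0.0459, adjusted P = 0.000147). Scn2b rose by 0.38 (SE 0.149, adjusted P = 0.0403) from 45.5 ± 8.48 to 59.4 ± 16.2 CPM, and its highest hippocampus value, 96.7 CPM, came from mouse 10, which held thalamus markers. Without the 7 libraries Scn2b stood at 0.28 (adjusted P = 0.207), and leaving out mouse 1, 2, 4, 5 or 6 ended its call (0.40, 0.39, 0.36, 0.37 and 0.39). The length and GC correction (0.32, adjusted P = 0.0714) and no filter on low counts (0.39, adjusted P = 0.0810) ended it too. So did leaving out the cortex library of mouse 2 (0.37, adjusted P = 0.0628). Its adjusted P value ran from 0.00135 to 0.219 over 23 alternatives. Scn4b did not pass (0.42, 95% interval -0.61 to 1.45).

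**Figure D3:**
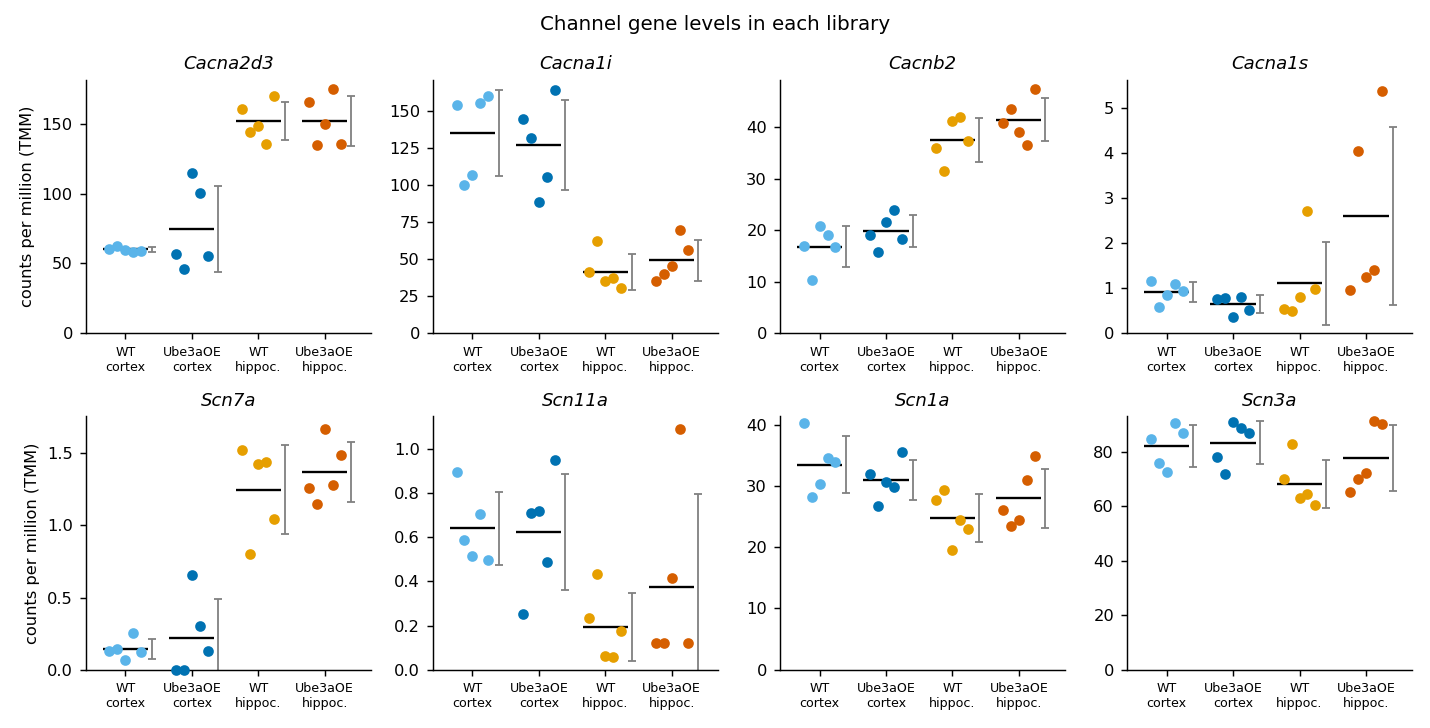
Each point is a library, with CPM on the vertical axis from 0 and the 4 groups along the horizontal axis. Black lines are means and grey bars SD over 5 mice. Cacna2d3, Cacnb2 and Scn7a lie higher and Cacna1i lies lower in all hippocampus libraries than in all cortex libraries, whereas Cacna1s stands highest in 3 hippocampus libraries, at 2.70, 4.04 and 5.36 CPM.

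Among the calcium channel pores, 4 fell in hippocampus and 1 rose. The largest difference was that of Cacna1i, a T-type channel gene known from thalamic reticular and cortical neurons. It was 154, 100.3, 107, 155 and 160.1 CPM in WT cortex and 145, 132, 88.6, 106 and 164 CPM in Ube3aOE cortex. Hippocampus libraries held 41.0, 62.2, 35.1, 37.5 and 30.4 CPM in WT and 35.5, 40.1, 45.0, 69.9 and 56.0 CPM in Ube3aOE mice. The tissues did not overlap. The highest hippocampus values were those of mouse 9 and mouse 2, which held striatum and neocortex markers. The cortex libraries of mice 8 and 9, which held hippocampus markers, were with those of mice 2 and 3 the 4 lowest. Cacna1i fell by 1.55 on the log2 scale (SE 0.160, adjusted P = 3.38e-07), and by 1.90 without the 7 libraries.

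The other T-type genes did not move alike. Cacna1g fell from 151 ± 30.2 CPM in cortex to 108 ± 25.2 CPM in hippocampus (SD, n = 10), a log2 fold change of -0.50 (SE 0.126, adjusted P = 0.00292). It stood at -0.79 without the 7 libraries and at -0.71 in WT libraries alone, and did not pass in Ube3aOE libraries alone (-0.26, adjusted P = 0.358). The highest hippocampus value, 169.7 CPM, was that of mouse 10. Cacna1h, at 84.1 ± 9.48 and 93.2 ± 11.1 CPM, did not pass (0.14, adjusted P = 0.121), but did so with the mouse as a replicate block (0.14, adjusted P = 0.0228, range 0.00357 to 0.275 over 23 alternatives). Per length, the order of the T-type genes was Cacna1g, Cacna1i and Cacna1h in cortex (14.9, 13.3 and 8.62 CPM per kb) and Cacna1g, Cacna1h and Cacna1i in hippocampus (10.6, 9.54 and 4.59 CPM per kb). Cacna1g and Cacna1i in cortex, and Cacna1g and Cacna1h in hippocampus, differed by less than 1 SD.

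The N-type gene Cacna1b fell by 0.27 (SE 0.0711, adjusted P = 0.00356), from 188 ± 20.97 to 157 ± 20.2 CPM, and the L-type gene Cacna1d fell by 0.23 (SE 0.0517, adjusted P = 0.000838), from 52.2 ± 3.68 to 44.7 ± 3.88 CPM (SD, n = 10). Each was lower in 9 of 10 mice. Cacna1d overlaps Chdh on the opposite strand, and the strand setting of the counting is not given in the sources used here. The P/Q-type gene Cacna1a (-0.17, adjusted P = 0.126), the R-type gene Cacna1e (-0.24, adjusted P = 0.102) and the L-type gene Cacna1c (-0.10, adjusted P = 0.237) did not pass. With the mouse as a replicate block Cacna1a passed at -0.16 (adjusted P = 0.0190, range 0.0190 to 0.356 over 23 alternatives) and Cacna1e at -0.26 (adjusted P = 0.0454, range 0.0193 to 0.701). Without mouse 2, whose hippocampus library held neocortex markers, Cacna1e stood at -0.33 and Cacna1c at -0.16, and both passed (adjusted P = 0.0193 and 0.0404, the latter with a range of 0.0404 to 0.893).

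Cacna1s, the pore of the skeletal muscle L-type channel, was the pore gene that rose. In cortex it was 1.15, 0.587, 0.839, 1.09 and 0.932 CPM in WT and 0.759, 0.773, 0.358, 0.792 and 0.507 CPM in Ube3aOE mice. The hippocampus values were 0.527, 0.494, 0.804, 2.70 and 0.987 CPM in WT and 0.960, 4.04, 1.25, 1.41 and 5.36 CPM in Ube3aOE mice. The 3 highest values were those of mice 4, 7 and 10, the libraries with 463, 554 and 1153 CPM of thalamus markers. The log2 fold change of 1.14 (SE 0.365, adjusted P = 0.0129) fell to 0.21 without the 7 libraries (adjusted P = 0.495). It fell to 0.27 in WT libraries alone (adjusted P = 0.660) and to 0.84 without mouse 4 (adjusted P = 0.0536). In limma voom with all libraries it did not pass either (0.84, adjusted P = 0.0657). The adjusted P value ran from 0.00373 to 0.660 over 23 alternatives. The 3 skeletal muscle markers summed to 7.81 to 10.7 CPM in hippocampus and 10.9 to 13.6 CPM in cortex. Mouse 7 also held the 1944 CPM of choroid plexus markers. The part of these markers in this difference was not tested.

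The α2δ and β subunits held the clearest opposite pair. Cacna2d3, an α2δ gene tied to pain and hearing, was 60.5, 62.6, 59.8, 58.5 and 59.1 CPM in WT cortex and 57.2, 45.8, 115, 101 and 55.5 CPM in Ube3aOE cortex. In hippocampus it was 161, 144, 149, 136 and 170.3 CPM in WT and 166, 135, 151, 175 and 136 CPM in Ube3aOE mice. The tissues did not overlap, and the 2 cortex values over 100 CPM were those of mice 8 and 9, whose cortex libraries held hippocampus markers. Its log2 fold change was 1.18 (SE 0.132, adjusted P = 7.49e-07), and 1.49 (SE 0.0571) without the 7 libraries. Cacna2d1, the gabapentin receptor, had a cortex median of 201 CPM (range 172 to 238) and a hippocampus median of 115 CPM (range 96.0 to 163), again without overlap. Its log2 fold change was -0.77 (SE 0.0920, adjusted P = 1.10e-06), and it was lower in 10 of 10 mice.

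Cacna2d2, the gene mutated in ducky mice and the other gabapentin-binding α2δ subunit, showed no difference across all libraries (-0.049, 95% interval -0.36 to 0.26). Its hippocampus values were 33.3, 44.0, 29.9, 50.2 and 31.9 CPM in WT and 35.1, 50.3, 35.0, 71.0 and 86.9 CPM in Ube3aOE mice, against 43.2 to 52.8 CPM in cortex. The 5 hippocampus values above 40 CPM were those of mice 2, 4, 7, 9 and 10. These are the 5 hippocampus libraries among the 7 (neocortex, thalamus or striatum markers, and in mice 7 and 9 choroid plexus as well). Mouse 8, which was kept with Tcf7l2 at 46.5 CPM, had 35.0 CPM. Without the 7 libraries Cacna2d2 was lower in hippocampus, at -0.52 (SE 0.0644, adjusted P = 4.16e-06, range 4.16e-06 to 1.00 over 23 alternatives, of which 1 passed). Whether the other tissue in these libraries brought the higher values was not tested. Cacna2d4 did not pass, with 0.13 and an interval from -0.39 to 0.66.

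Cacnb2, a β subunit best known from the heart, was 17.0, 10.4, 20.9, 19.1 and 16.8 CPM in WT cortex and 19.0, 15.8, 21.6, 23.9 and 18.4 CPM in Ube3aOE cortex. In hippocampus it was 35.9, 31.5, 41.2, 42.1 and 37.2 CPM in WT and 40.7, 43.5, 39.0, 36.5 and 47.4 CPM in Ube3aOE mice. The tissues did not overlap, and the log2 fold change of 1.11 (SE 0.0975, adjusted P = 1.59e-08) had the smallest P value of all 33 genes. It stayed between 1.05 and 1.18 over 23 alternatives. Cacnb3, the most abundant β subunit per length, went the other way and fell by 0.33 (SE 0.0601, adjusted P = 9.58e-05), from 278 ± 35.3 to 221 ± 8.44 CPM. Cacnb4, the gene mutated in lethargic mice, fell by 0.32 (SE 0.0881, adjusted P = 0.00506), from 63.6 ± 10.3 to 51.3 ± 6.08 CPM (SD, n = 10). Cacnb1 did not pass, with an interval from -0.024 to 0.14.

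Hcn2 and Hcn4 went in opposite directions. Hcn2, a channel of wide expression in brain and heart, rose from 67.2 ± 5.74 to 82.1 ± 7.30 CPM in 10 of 10 mice, by 0.28 (SE 0.0532, adjusted P = 0.000158). Hcn4, the slow channel known from the sinoatrial node and thalamus, fell from 26.6 ± 2.16 to 20.4 ± 5.80 CPM, by 0.41 (SE 0.107, adjusted P = 0.00325). Its highest hippocampus values, 27.0 and 31.3 CPM, were those of mice 9 and 10, and without the 7 libraries it fell by 0.75. In WT libraries alone it fell by 0.61, and in Ube3aOE libraries alone it did not pass (-0.18, adjusted P = 0.420). Hcn3 did not pass (-0.076, interval -0.18 to 0.031), but was called lower without the 7 libraries (-0.19, adjusted P = 0.0109, range 0.0109 to 0.951 over 23 alternatives). It overlaps Pklr on the opposite strand.

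Other calls that held with all libraries missed the threshold in one genotype alone with 10 libraries. In WT libraries these were Scn2a1 (-0.35, adjusted P = 0.0554), Cacna1b (-0.23, 0.142) and Cacna1d (-0.19, 0.0532). In Ube3aOE libraries Cacnb3 stood at -0.26 (adjusted P = 0.0605), and Cacnb4 and Scn2b missed it in both. Of the 7 libraries with markers of another tissue 5 are from Ube3aOE mice, so genotype and these markers move together in such fits. The test of whether the region difference itself differed between the genotypes called 0 channel genes.

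Among the 31 genes that passed the filter in each tissue, 5 had 10 hippocampus and 10 cortex libraries without overlap (among them Cacna1i, Cacna2d1, Cacna2d3 and Cacnb2), or 16.1%, where 8.83% of all such genes did so. A change of 1 or more in size on the log2 scale was called in 4 of them, or 12.9%, against 4.95% of all such genes, and 1 of the 4 is Cacna1s, which stood at 0.21 without the 7 libraries. Beyond 0.5 in size there were 6 genes, or 19.4%, against 16.8%.

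**Figure D4:**
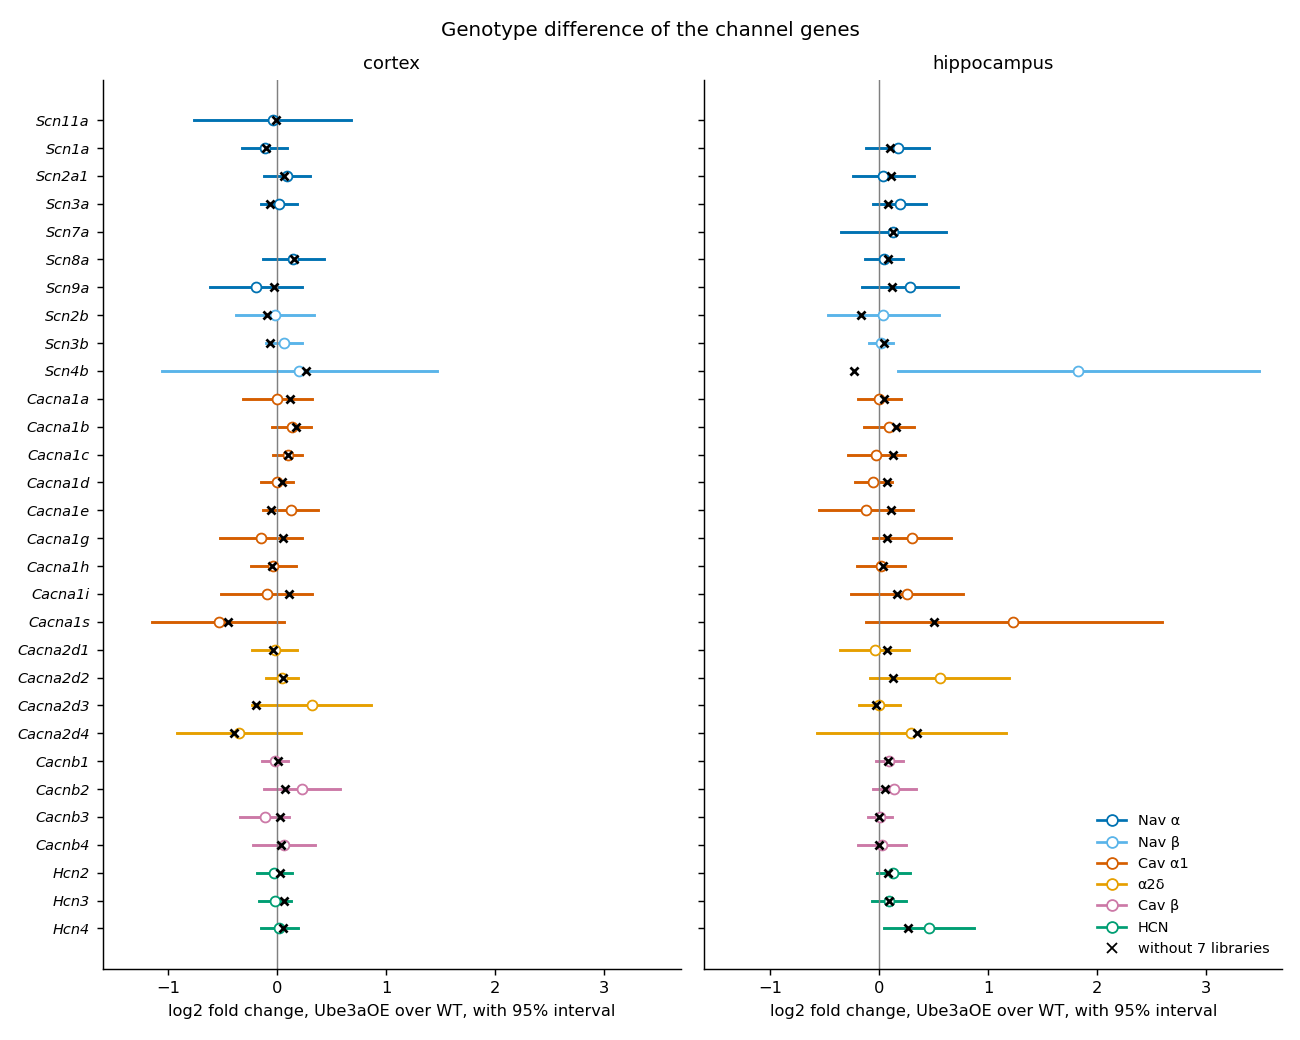
Open points give the log2 fold change of Ube3aOE over WT with its 95% interval in cortex (left) and hippocampus (right), colored by subunit family, and black crosses give the value without the libraries with markers of another tissue. In cortex the intervals of all 29 genes drawn contain 0. In hippocampus the wide intervals of Scn4b and Cacna1s reach far to the right, and their crosses lie at -0.23 and 0.50. The hippocampus crosses rest on WT mice 1, 3 and 5 and Ube3aOE mice 6 and 8 alone.

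The genotypes were compared within each tissue to ask whether extra Ube3a changed channel gene levels. In cortex 0 of 32 channel genes passed in edgeR, and 1 of all 14947 genes did. An unadjusted P value under 0.05 was found for 0 channel genes and for 4.44% of all genes. DESeq2 and limma voom gave 0 channel genes at either border (unadjusted, 4.56% and 4.24% of all genes). The median log2 fold change was 0.011 over the channel genes and 0.0033 over all genes, with 17 genes above and 15 below 0. The 95% interval lay inside -0.5 to 0.5 for 22 of the 32 genes, or 68.8%, as it did for 73.8% of all genes. For Scn2a1 it ran from -0.12 to 0.30, for Scn8a from -0.13 to 0.43, for Scn1a from -0.32 to 0.095 and for Scn3a from -0.15 to 0.19.

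Cacna1s and Cacna1b were among the 3 smallest P values in cortex. Cacna1s, with the per-library values above, was -0.53 (SE 0.282) on 6 to 18 counts a library. Cacna1b was 210.2, 154, 165, 174 and 193 CPM in WT and 215, 185, 174, 202 and 209 CPM in Ube3aOE cortex, at 0.14 (SE 0.0826). The WT and Ube3aOE values of both genes overlapped, and the adjusted P value was 0.960 for each in edgeR.

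In hippocampus 0 of 32 channel genes passed as well, and 1 of all 15220 genes did. Before adjustment 3 channel genes had a P value under 0.05 in edgeR (9.38%, against 7.21% of all genes). DESeq2 gave 4 (7.8% of all genes) and limma voom gave 2 (7.43% of all genes). The median log2 fold change was 0.092 against 0.0023 over all genes, with 26 genes above and 6 below 0. The interval lay inside -0.5 to 0.5 for 19 of 32 genes, or 59.4%, against 69.8% of all genes. Intervals ran from -0.24 to 0.32 for Scn2a1, from -0.13 to 0.22 for Scn8a, from -0.11 to 0.46 for Scn1a and from -0.055 to 0.44 for Scn3a.

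Hcn4 and Scn4b were among the 3 smallest P values in hippocampus, with an adjusted P value of 0.668 each in edgeR. Hcn4 was 14.5, 23.0, 14.1, 18.9 and 15.3 CPM in WT and 16.9, 24.1, 18.5, 27.0 and 31.3 CPM in Ube3aOE mice, at 0.46 (SE 0.190), and 0.27 without the libraries with markers of another tissue. The 3 highest Ube3aOE values were those of mice 7, 9 and 10. The value of 0.27 rests on WT mice 1, 3 and 5 and Ube3aOE mice 6 and 8 alone.

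Scn4b was 1.58, 0.926, 1.73, 2.36 and 2.44 CPM in WT and 1.80, 3.56, 1.49, 20.3 and 5.06 CPM in Ube3aOE hippocampus. The value of mouse 9, the library with 438.5 CPM of striatum markers and 343 CPM of choroid plexus markers, stood apart from all others. The log2 fold change was 1.82 (SE 0.737) with all libraries, 0.72 without mouse 9 and -0.23 without the libraries with markers of another tissue. This last value rests on WT mice 1, 3 and 5 and Ube3aOE mice 6 and 8 alone. In the same library of mouse 9, Scn11a was 1.09 CPM and Scn10a 1.09 CPM (17 counts), and Scn10a was 0 in 8 of the other hippocampus libraries and 0.121 CPM in mouse 7. All 6 striatum markers were highest there, with Penk, a neuropeptide gene of striatal neurons, at 142 CPM against 12.0 to 15.8 CPM in the other hippocampus libraries. The part of the striatum and choroid plexus markers in these values was not tested.

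**Figure D5:**
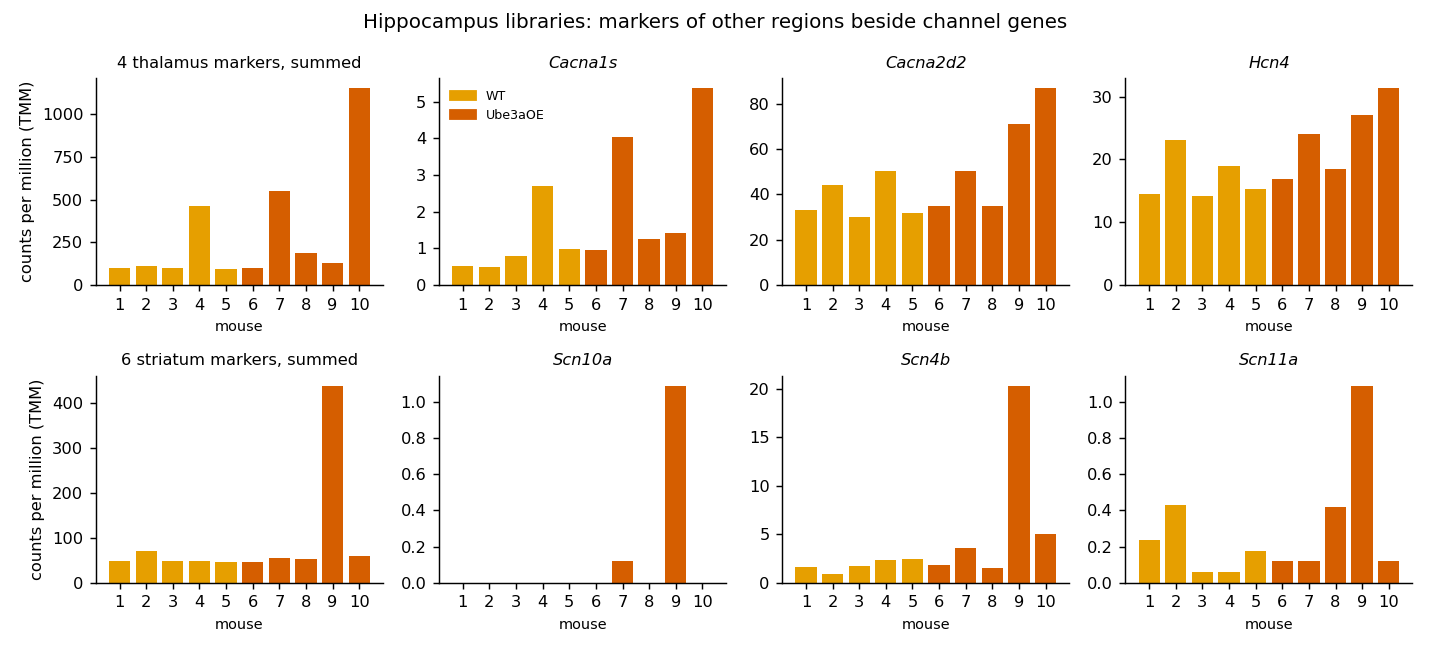
Bars give CPM in the 10 hippocampus libraries by mouse, for the summed thalamus markers with Cacna1s, Cacna2d2 and Hcn4 (top) and for the summed striatum markers with Scn10a, Scn4b and Scn11a (bottom). Mice 4, 7 and 10 stand high in both the thalamus markers and Cacna1s, and mouse 9 stands high in the striatum markers, Scn10a, Scn4b and Scn11a.

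The test of whether the genotype difference itself differed between the tissues called 0 of 33 channel genes in edgeR (0.0% of 15661 genes). An unadjusted P value under 0.05 was found for 2 of them in edgeR (6.06%, against 3.77% of all genes). DESeq2 gave 3 (3.85% of all genes) and limma voom gave 2 (3.4% of all genes). Cacna1s was 1 of the 2 in edgeR, at 1.77 (SE 0.733, adjusted P = 0.997). Without the 7 libraries 0 channel genes had an unadjusted P value under 0.05 in edgeR, against 2.69% of all genes. In hippocampus this fit held WT mice 1, 3 and 5 and Ube3aOE mice 6 and 8 alone. The interval of the difference lay inside -0.5 to 0.5 for 16 of 33 genes, or 48.5%, against 56.0% of all genes. With the mouse as a replicate block 6 of 33 genes had an unadjusted P value under 0.05 in edgeR, against 6.03% of all genes, and 0 passed after adjustment.

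Genes known to work with these channels were listed from general knowledge, 34 in all, of which 33 could be tested between the regions. There 9 were higher and 15 lower in hippocampus, or 72.7% (50.9% of all genes). Cacng6 and Stac3 passed the filter on low counts through their cortex values alone, and without them 22 of 31 passed (71.0%, against 50.6%). Of the 10 sodium channel partners 3 were higher and 5 lower, of 18 calcium channel partners and regulators tested 5 were higher and 9 lower, and of the 4 genes of the sodium leak channel complex 1 was higher and 1 lower. The HCN partner Pex5l did not pass. Those with a change of 1 or more in size were Cachd1, an α2δ-like protein, which rose from 18.3 ± 5.97 to 90.9 ± 19.9 CPM (log2 fold change 2.31, SE 0.167, adjusted P = 5.28e-09), and Gem, a small GTPase that inhibits calcium channels, which rose from 1.42 ± 0.413 to 2.96 ± 1.03 CPM (1.05, SE 0.212, adjusted P = 0.000302). The γ subunit gene Cacng6 fell by 1.82 (SE 0.201, adjusted P = 2.12e-07), from 2.05 ± 0.566 to 0.577 ± 0.197 CPM, and Stac3, an adaptor of the muscle channel, fell by 1.00 (SE 0.298, adjusted P = 0.00717), from 0.918 ± 0.342 to 0.463 ± 0.261 CPM (SD, n = 10). Between genotypes 0 of 33 partner genes passed in cortex and 0 of 31 in hippocampus.

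The channel genes also share places in the genome, given here in build GRCm38. Scn3a, Scn2a1, Scn1a, Scn9a and Scn7a lie in a cluster on chromosome 2 between 65457118 and 66784914, with 3 other protein-coding genes inside it. Their region differences ran from -0.39 for Scn2a1 to 2.81 for Scn7a, whose neighbor Scn9a lies 38463 bases away and was at -0.24. Scn10a and Scn11a lie side by side on chromosome 9 between 119608456 and 119825456, and both had their highest hippocampus value in mouse 9. Scn2b and Scn4b are neighbors on chromosome 9 with 8325 bases between them. They stood at 0.38 and 0.42 with all libraries, and at 0.28 and -0.56 without the 7 libraries, where neither passed. Cacna2d3 and Cacna1d lie on chromosome 14 with 318075 bases between them and differed in opposite directions, at 1.18 and -0.23.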

How the data were processed

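RNA from cortex and hippocampus of 5 WT and 5 Ube3aOE mice at postnatal day 7 was sequenced as stranded mRNA libraries. The authors deposited 1 file of raw read counts per gene and library (47729 genes). Each file ends in 5 lines that name no gene, with 18.8% to 30.3% of the reads, and these were left out of totals and tests. The submitters' processing notes name HISAT2 2.1.0, HTSeq 0.11.2 and GRCm38/mm10, whereas the annotation and strand setting are not given in the sources used here. Lengths and positions came from GENCODE release M21 (99.1% of gene identifiers, 36 of 36 channel genes) and promoters from RefSeq.

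The deposited counts went into edgeR 4.0.16 under R 4.3.3 (TMM, filterByExpr, robust quasi-likelihood F test, Benjamini-Hochberg adjustment over all genes, threshold 0.05). Region and interaction were fitted over all 20 libraries and genotype within each tissue's 10. The fit over all libraries had a mean for each group of genotype and tissue and no term for the mouse. Its standard errors and P values thus leave out the pairing of tissues within a mouse. Standard errors and 95% intervals rest on the F statistic and the spread between libraries of a group. The biological coefficient of variation was 13.7% (12.1% in cortex, 14.9% in hippocampus). Shares of a family are means over 5 mice without a test. The fits were run on counts simulated from the real means and library sizes. Each library was drawn on its own, without a term for the mouse or for markers of another tissue. The simulation thus says nothing on either of these. Alternatives were DESeq2 1.42.0, limma 3.58.1 (voom), DESeq2's size factors, library totals alone, no filter on low counts, labelled sex as a covariate, a length and GC correction, each genotype alone, each mouse left out, and the mouse as a replicate block. Leaving out 7 libraries, or the cortex library of WT mouse 2 (lowest share of reads on genes), was added after the data were seen. Values were collected with pandas 2.3.3 in Python 3.11.15, and figures were drawn with matplotlib 3.10.9.

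The labels number the mice, so same-numbered libraries come from 1 animal. The deviations of a mouse's 2 libraries from their group means had a correlation over genes of -0.037 (mouse 4) to 0.248, with a median of 0.215 and a value above 0.1 in 9 of 10 mice.

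Per-library values are given for channel genes that passed between regions with a log2 fold change of 1 or more in size, for Scn1a and Scn3a, and for the 3 smallest P values between genotypes in each tissue. Some channel genes are part of the counts over all 36 but are not reported here by name. Partner genes are named if they changed by 1 or more. The library values of Cacna2d2, Scn10a, Tcf7l2, Gbx2 and Penk were chosen after they were seen. The channel genes, the partner list and the marker lists were chosen with earlier results of these data known, and the lists were written from general knowledge.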

Additional observations from a re-analysis of the deposited data

Results flagged for a closer look

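In 120 groups of 5 libraries searched (30 channel genes in 4 groups), 6 single values lay far from the rest of their group by Dixon's test at 0.71 of the range, where chance gives about 1 in 20 groups (6.0 of 120). Mouse 9 gave 1 of them in Ube3aOE hippocampus, Scn4b at 20.3 CPM (next value 5.06 CPM). Mouse 10 gave 2 in the same group, Hcn2 at 100 CPM (99.97 CPM before rounding, next 83.9 CPM) and Scn2b at 96.7 CPM (next 58.5 CPM). In WT hippocampus Cacna1s was 2.70 CPM in mouse 4 (next 0.987 CPM). The cortex library of WT mouse 2, which had the lowest share of reads on genes (69.7%), gave Cacnb3 at 331 CPM (next 287 CPM) and Scn3b at 335 CPM (next 296 CPM). Mice 4, 9 and 10 are among those whose hippocampus libraries held thalamus or striatum markers, and the part of these markers in the values was not tested. No channel gene had a genotype difference that passed the test of a difference between the tissues.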

How the results depend on the processing

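The region count of 21 channel genes was 18 to 22 when each mouse was left out (higher 7 to 10, lower 11 to 14, beyond 0.5 8 to 10, partner genes 20 to 23) and 25 with the mouse as a replicate block, which added 4 genes, among them Cacna1h, Cacna1a and Cacna1e, and changed no other call. With the block and the length and GC correction together it was 26, with Cacna1h, Cacna1e, Hcn3 (-0.099) and Scn8a (0.13) among those added. It was 12 with Ube3aOE libraries only, of which 5 were lower in place of 12, and 14 with WT libraries only, of which 7 were lower. These fits held 10 libraries each, and Scn11a was not tested in them. The share of all genes called after adjustment is not given for the alternatives. These counts thus cannot tell a change in the channel genes from a change over all genes. At an unadjusted P value under 0.05 in edgeR, 60.3% of all genes were called with the block and 56.3% without it. The same share was 57.2% with the length and GC correction, 54.7% without the 7 libraries and 35.5% with no filter. It was 56.2% in DESeq2 and 56.5% in limma voom. Named genes that missed the threshold were Scn1a, Scn3a, Cacna1g, Hcn4, Scn2b, Cacnb3 and Cacnb4 in Ube3aOE libraries and Scn2a1, Cacna1b, Cacna1d, Cacna1s, Cacnb4 and Scn2b in WT libraries. The log2 fold changes of Scn1a, Scn3a, Cacna1g and Hcn4 in Ube3aOE and of Cacna1s in WT libraries were also smaller, by over 1.5 times, and the cause was not tested. DESeq2, limma voom, both other normalizations, no filter, the sex covariate, the length and GC correction, the 7 libraries left out and the cortex library of mouse 2 left out gave 20 to 23. The sex covariate used the labelled sex, which the genes that mark sex went against in mice 3 and 5, so it cannot settle the part of sex. The counts of 0 between genotypes and for the interaction were 0 in every alternative, each mouse left out included (0 to 0). Scn4b between genotypes in hippocampus turned from 1.82 to -0.23 without the 7 libraries, which left Ube3aOE mice 6 and 8 in that tissue. The direction of every region difference that passed was the same in all alternatives.

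Shares of a family moved with the length used. With coding lengths they were, in WT cortex and WT hippocampus, 53.4% and 47.8% for Scn2a1, 70.9% and 64.4% for Scn3b, 19.0% (18.95%) and 20.6% for Cacna1b, 65.7% and 38.6% for Cacna2d1, and 32.9% and 35.3% for Hcn2, and 56.0% (55.96%) for Cacnb3 in hippocampus. Without length they were 53.7% for Scn2a1 in cortex, 70.7% and 64.2% for Scn3b, 19.2% and 20.8% for Cacna1b, 65.3% and 38.6% for Cacna2d1, 57.1% and 49.4% for Cacnb3, and 32.7% and 35.3% for Hcn2. Leaving out each mouse gave, in cortex and hippocampus, 55.2% to 55.8% and 49.3% to 51.0% (50.95%) for Scn2a1, 50.7% to 52.6% and 41.3% to 43.7% for Scn3b, 22.1% to 22.7% and 24.3% to 25.3% for Cacna1b, 55.5% to 57.0% (56.97%) and 28.6% to 31.3% for Cacna2d1, 64.1% to 65.6% and 58.3% to 58.9% for Cacnb3, and 45.9% to 46.8% and 51.4% to 52.8% for Hcn2. At this depth Scn4a, Scn10a and Cacna1f could not be tested.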
